A study of Mus musculus with 28 samples.

Results

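The genes described here were 32 mouse genes of base excision repair and of candidate routes of active DNA demethylation, listed by name. Of these, 24 had a probe among the 30632 genes of the array. A gene was tied to its probes through the RefSeq accession in the array design, and the probe with the highest mean signal stood for the gene. Tet1, Tet3, Ung, Smug1, Apex1, Polb, Aptx and Neil3 had no matched probe and were not analysed here.

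The study, whose title concerns the methylome of primordial germ cells (PGC), hybridised 28 single-colour (Cy3) Agilent mouse arrays, 2 in each of 14 groups. PGC, from which eggs and sperm descend, were taken from females and males at E10.5, E13.5 and E17.5 (10.5, 13.5 and 17.5 days post coitum), all of BDF1 x TgN(deGFP)18Imeg stock. Oogonia and spermatogonia, the germ cells of the female and the male, whose age the labels do not give, were BDF1 x Tg(Mvh-Venus)1Rbrc. The female and male EG cells, pluripotent cultures made from PGC, were Rb(X.2)2Ad X 129/Sv, and their source field names PGC at 12.5 days. Female ES cells were line no5 on 129/Sv and male ES cells line TMA5 on TgN(deGFP)20Imeg X MSM/Ms. GS cells, which are spermatogonial stem cells grown in culture, were DBA/2, and adult testis was C57BL/6J. No group carried a treatment or a deletion. Where strain changed with the cell type, the parts of strain and cell type cannot be told apart.

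Base excision repair starts with a DNA glycosylase that cuts a damaged or modified base from the sugar backbone. An AP endonuclease opens the strand at the gap, PARP enzymes mark the break, and the scaffold Xrcc1 brings in a polymerase and DNA ligase 3 (Lig3). Germ cells lose most of their DNA methylation while they colonise and settle in the gonad. One proposed route runs through this pathway: TET dioxygenases oxidise 5-methylcytosine, and thymine DNA glycosylase (Tdg) removes the oxidised forms. Deamination of cytosine by APOBEC enzymes and repair helped by GADD45 proteins have been put forward as other routes, and MBD proteins read methylated CpG sites.

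The 250 bases before the annotated start are given for 3 members. Gadd45a, Apobec2 and Tdg were taken because they had the largest falls among the members between E10.5 and E13.5, with the sexes averaged. They are from RefSeq (GRCm38.p6), read 5′ to 3′ on the gene's strand, with each CpG in capitals. Apobec2 lies at chr17:48432729-48432978 (minus strand), Tdg at chr10:82629588-82629837 (plus strand) and Gadd45a at chr6:67037408-67037657 (minus strand).
Apobec2: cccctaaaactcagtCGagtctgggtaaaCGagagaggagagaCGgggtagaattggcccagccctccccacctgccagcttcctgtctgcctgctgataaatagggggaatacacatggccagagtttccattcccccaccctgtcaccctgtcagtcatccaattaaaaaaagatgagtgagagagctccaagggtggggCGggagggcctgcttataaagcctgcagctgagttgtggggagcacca
Tdg: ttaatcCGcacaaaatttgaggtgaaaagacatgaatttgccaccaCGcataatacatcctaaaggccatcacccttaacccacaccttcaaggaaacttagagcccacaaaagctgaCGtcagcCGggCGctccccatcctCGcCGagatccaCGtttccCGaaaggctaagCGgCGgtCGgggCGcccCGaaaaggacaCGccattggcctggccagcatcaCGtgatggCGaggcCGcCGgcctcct
Gadd45a: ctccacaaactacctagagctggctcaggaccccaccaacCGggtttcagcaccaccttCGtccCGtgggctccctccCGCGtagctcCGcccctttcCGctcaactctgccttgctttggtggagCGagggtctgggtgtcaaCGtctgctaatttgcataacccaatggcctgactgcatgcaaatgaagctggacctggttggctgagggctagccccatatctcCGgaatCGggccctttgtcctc

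The Apobec2 stretch held 4 CpGs, against 19 in that of Tdg and 11 in that of Gadd45a. Over the 32851 starts of the same table the median was 6. Of the 32 listed genes, 27 had an entry there, and 25 of them had more CpGs than that median in at least 1 start. The window of Tet2 held 51, the most among the members. A GC box (GGGCGG, either strand) was present in 17 of the 27 genes and in 32.7% of all starts, and CCAAT (either strand) in 17 and in 33.8%. TATAAA (either strand) was present in 7 of the genes and in 12.4% of all starts. Apobec2 and Gadd45a had a GC box, all 3 printed stretches had CCAAT, and of the 3 only Apobec2 had TATAAA.

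A level below is the processed signal on the log2 scale, set relative to the array's own 75th percentile over probes detected on all arrays, so that 0 is that percentile. A probe is called detected on an array where the scanner software marked it well above background. Between 17.77% and 76.68% of probes were detected per array, fewest on an E10.5 male and most on a testis array. Of the 24 members, 10 were detected on all 28 arrays. Levels are compared within a gene only. The labels leave unsaid whether a group's 2 arrays stem from different animals or cultures. The p-values set each difference against the gene's spread between the arrays of a group, pooled over all 14 groups. That spread may therefore be technical. Each p is limma's, adjusted by Benjamini-Hochberg over all genes tested in the comparison, and a difference with adjusted p under 0.05 passed. Each ± after a difference is its standard error in that fit. In bulk RNA, fewer cells of a type and less RNA per cell cannot be told apart. The 5 germ cell markers (Ddx4, Dazl, Mael, Tex101 and Dnd1) summed to between 1.77 and 4.17 (log2 of the summed scaled signal) in PGC, oogonia, spermatogonia, GS and testis and to between -2 and -1.08 in EG and ES cells. The arrays labelled oogonia showed all 6 oocyte markers, with sums of 2.59 and 2.57. All 6 were also detected on both E17.5 female arrays (1.5 and 1.35), E17.5 male replicate 2 (-0.87) and spermatogonia replicate 2 (-1.7).

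**Figure D1:**
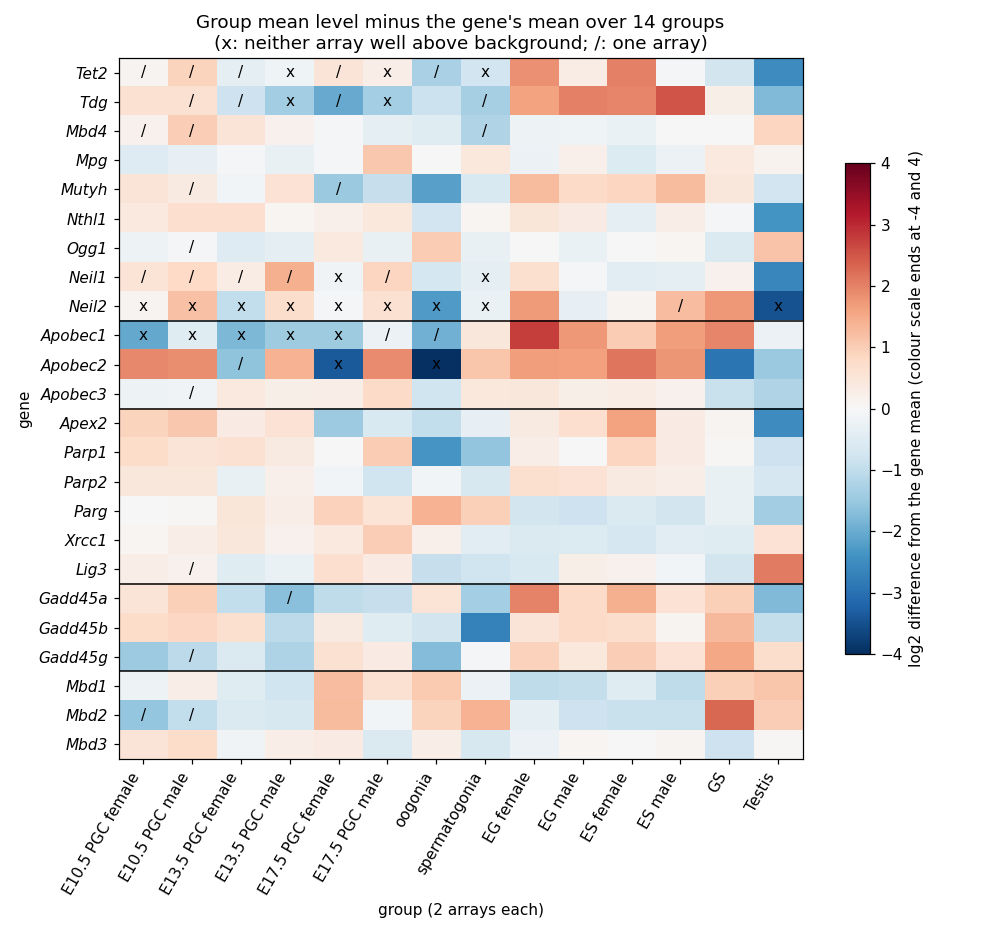
Mean level of each measured gene in each group minus that gene's mean over the 14 groups (colour, log2), with groups on the horizontal axis and genes by role on the vertical axis. A cross marks groups where neither array was detected and a slash groups where 1 was. Apobec2 is lowest in oogonia, and Tdg is high in all 4 EG and ES groups.

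Tet2 was the only TET dioxygenase measured, and it was near the detection limit in germ cells. It was detected on 4 of the 12 PGC arrays, on 1 of the 2 oogonia arrays and on neither spermatogonia array. The detected PGC levels lay between -7.38 and -5.87. In EG cells the levels were -5.56 and -5.35 in females and -7.17 and -6.78 in males, all detected. In ES cells they were -5.31 and -5.19 in females and -7.19 and -7.53 in males. EG and ES females were thus high and did not overlap the males. GS arrays read -7.03 and -9, and testis arrays -9.63 and -9.93. Tet2 was 1.34 ± 0.48 higher in EG than in E13.5 PGC (adjusted p = 0.0329), where 1 of 4 PGC arrays was detected, but the difference was -1.23 with normexp background correction.

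Tdg, the glycosylase that acts on oxidised methylcytosine and on T in a G:T mismatch, was brightest in cultured pluripotent cells. At E10.5 its levels were -4.46 and -4.65 in females and -4.68 and -4.44 in males, the first male array not detected. At E13.5 they were -6.45 and -5.49 in females and -6.81 and -6.31 in males, and only the second female array was detected. Tdg fell by 1.71 ± 0.28 on the log2 scale (adjusted p = 0.000227), a size that rests mostly on undetected E13.5 signal. The 1 detected E13.5 array lay below all 3 detected E10.5 arrays. At E17.5, 1 of 4 arrays was detected, at -6.58. Oogonia read -5.95 and -6.1, spermatogonia -6.27 (not detected) and -6.69, and testis -6.94 and -6.91. EG levels were -3.42, -3.64, -2.99 and -3.28, ES levels -3.4, -3, -2.63 and -2.65, and GS levels -4.96 and -4.88. The difference between EG cells and E13.5 PGC was 2.93 ± 0.28 (adjusted p = 5.64e-07), with 1 of 4 PGC arrays detected, so its size rests mostly on undetected PGC signal. GS exceeded spermatogonia by 1.56 ± 0.40 (adjusted p = 0.00841), but the difference was -0.70 with normexp correction and -0.09 with the mean of both Tdg probes. The second Tdg probe, detected on 8 arrays, gave -0.72 for E13.5 against E10.5, 0.22 for EG against E13.5 PGC and -1.74 for GS against spermatogonia.

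Among the other glycosylases, Mutyh, which removes A opposite oxidised G, read -4.85, -4.88, -4.04 and -4.29 at E13.5 (females first) and -6.27 (not detected), -6.21, -5.69 and -5.65 at E17.5. It fell by 1.38 ± 0.38 in females (adjusted p = 0.0106) and by 1.51 ± 0.38 in males (adjusted p = 0.00491), with no overlap in either sex. It was also 1.58 ± 0.38 higher in spermatogonia (-5.47 and -5.23) than in oogonia (-7.01 and -6.84; adjusted p = 0.00272). Mpg, the alkyladenine glycosylase, rose in males from -1.56 and -1.34 at E13.5 to -0.11 and -0.06 at E17.5, by 1.37 ± 0.24 (adjusted p = 0.000385), and was then 1.11 ± 0.24 above females (adjusted p = 0.00136). Its second probe, detected on 19 arrays, gave the opposite, -1.04 for the male step and -2.05 for sex at E17.5. Ogg1, which cuts 8-oxoguanine, was 1.30 ± 0.35 lower in spermatogonia (-4.21 and -4.37) than in oogonia (-3.02 and -2.95; adjusted p = 0.00535). Nthl1, which removes oxidised pyrimidines, was 0.97 ± 0.27 lower in oogonia (-3 and -3.09) than in E17.5 females (-1.86 and -2.29; adjusted p = 0.0209).

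Mbd4, a glycosylase for T and U opposite G at CpG sites, stayed between -5.62 and -4.01 on all 12 PGC arrays, and none of the 3 stage steps or 2 PGC sex comparisons passed. The male step to E17.5 (-0.53) passed with the 75th percentile over all probes (-1.02 ± 0.33, adjusted p = 0.0205). In GS cells it was 1.19 ± 0.33 above spermatogonia (adjusted p = 0.0156), of which 1 array was detected, and the difference was -0.64 with normexp correction. Neil1 and Neil2, glycosylases of oxidised bases, were mostly at the detection limit. Neil2 was detected on 9 arrays, which were 4 EG, 3 ES and 2 GS arrays and none of 12 PGC arrays. In EG cells Neil2 read -6.86 and -6.52 in females and -8.39 and -9.02 in males. Neil1 was detected on 19 arrays and read -8.24 and -7.6 in oogonia and -6.36 and -6.8 in EG females. Neither was tested within PGC or for spermatogonia against E17.5 males, since no compared group had both arrays detected. Neil2 was also untested for oogonia against E17.5 females and for spermatogonia against oogonia. In the other comparisons among PGC, oogonia, spermatogonia, EG, ES and GS, neither passed.

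**Figure D2:**
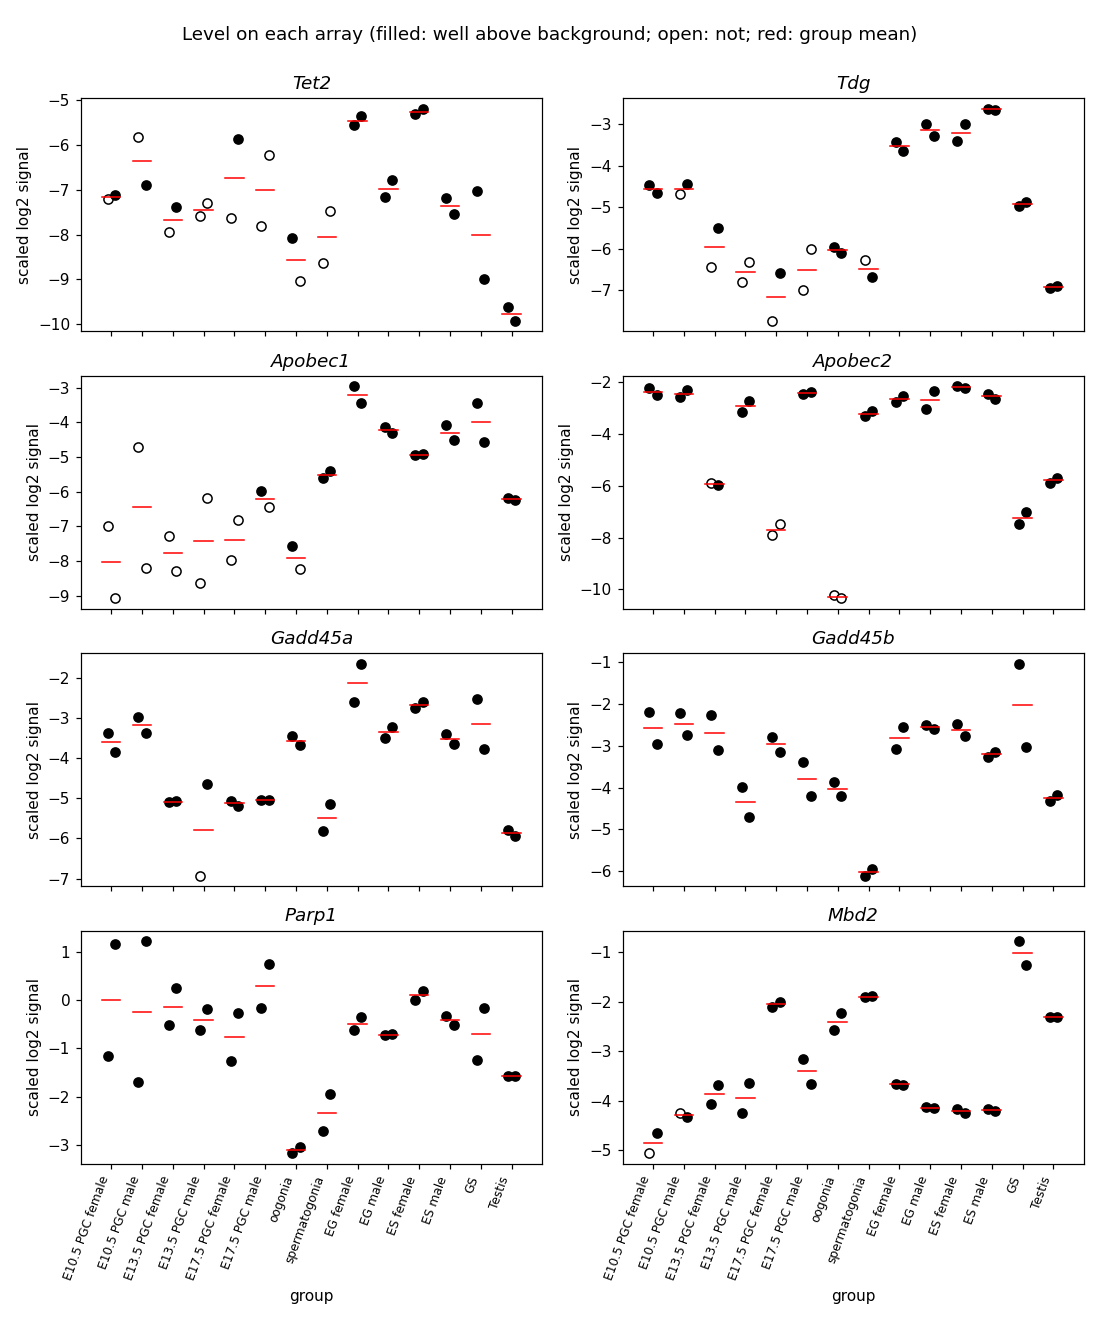
Level (scaled log2 signal, vertical axis) of 8 members on each array by group (horizontal axis). Filled points were detected, open points were not, and the red line is the group mean. Apobec2 is low in E13.5 and E17.5 females and oogonia, and replicate 1 of Parp1 at E10.5 lies below replicate 2 in both sexes.

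Apobec2, a member of the APOBEC family expressed mainly in muscle, was high or low by group, with the lowest readings in oogonia and E17.5 females, where it was not detected. At E10.5 both sexes were high, at -2.25 and -2.52 in females and -2.59 and -2.33 in males. At E13.5 males stayed at -3.16 and -2.73, while females were at -5.9 (not detected) and -5.96. At E17.5 males were at -2.47 and -2.41 and females at -7.92 and -7.47, neither female array detected. Spermatogonia read -3.33 and -3.13, and oogonia -10.22 and -10.34, neither detected. The sexes overlapped at E10.5 and were apart from E13.5 on. The male excess was 2.99 ± 0.27 at E13.5 (7.94-fold, adjusted p = 5.59e-06), with 1 of 2 female arrays detected. That call ended with the deposited values. The excess was at least 16.0-fold at E17.5 (difference 5.25 ± 0.27, adjusted p = 2.53e-09) and at least 38.9-fold in spermatogonia against oogonia (7.05 ± 0.27, adjusted p = 1.12e-10). Such a bound sets the bright side against the higher of the dim value and the lowest detected signal of each array. In these sex comparisons Apobec2 was tested through the male side alone, the only side with both arrays detected.

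In culture, Apobec2 was high in EG cells (-2.77, -2.54, -3.04 and -2.36) and ES cells (-2.18, -2.23, -2.47 and -2.66). It was low in GS cells (-7.49 and -7.03) and intermediate in testis (-5.91 and -5.7). GS fell by 4.03 ± 0.27 relative to spermatogonia (16.4-fold, adjusted p = 1.38e-07). EG exceeded the mean of both E13.5 sexes by 1.76 ± 0.19 (adjusted p = 2.08e-06), though EG arrays overlapped those of E13.5 males. Sertoli cell markers rose on the same male arrays. The 8 markers with a probe summed to 0.93 and -0.25 in E13.5 males (6 and 5 detected) and to -4.17 and -4.27 in females (1 and 3 detected). At E17.5 the sums were 2.95 and 1.88 in males and -3.04 and -2.12 in females. At E10.5 the sums were between -3.46 and -2.13 over both sexes. The part of Sertoli cells in the Apobec2 difference was not tested.

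Apobec1, the editing enzyme of apolipoprotein B mRNA, was detected on 1 of 12 PGC arrays, an E17.5 male at -5.99. It was detected in spermatogonia at -5.61 and -5.41 and in testis at -6.17 and -6.23. EG cells read -2.96 and -3.44 in females and -4.14 and -4.3 in males, ES cells -4.95, -4.92, -4.07 and -4.52, and GS cells -3.43 and -4.56. EG cells were at least 7.26-fold above E13.5 PGC, none of which was detected (3.88 ± 0.66, adjusted p = 0.000186). Oogonia read -7.57 and -8.23, the latter not detected. With 1 of 2 oogonia arrays detected, the difference was 2.39 ± 0.94 for spermatogonia against oogonia (adjusted p = 0.0445), and it did not pass with the replicate number as a block (adjusted p = 0.0895, within a range of 0.0459 to 0.258 over the 11 alternatives). Apobec3, an antiviral family member, lay between -4.62 and -2.36 on all 28 arrays. It was 1.23 ± 0.42 higher in spermatogonia (-3.08 and -2.89) than in oogonia (-4.21 on both; adjusted p = 0.0234) and 1.33 ± 0.42 lower in GS (-4.27 and -4.35) than in spermatogonia (adjusted p = 0.0288).

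Among the genes that process strand breaks, Apex2, an X-linked AP endonuclease, was lower at each later stage in PGC. Its levels were -2.94, -2.91, -2.72 and -2.76 at E10.5, -3.49, -3.49, -3.29 and -3.19 at E13.5, and -5.34, -5.19, -4.24 and -4.59 at E17.5, females first at each stage. No 2 stages overlapped. Apex2 fell by 0.53 ± 0.16 to E13.5 (adjusted p = 0.0173), a call that ended with slide as a fixed block, with the deposited values (-0.27) and with no filter on dim probes. It then fell by 1.77 ± 0.23 in females (adjusted p = 2.52e-05) and by 1.18 ± 0.23 in males (adjusted p = 0.000725). Males were 0.85 ± 0.23 above females at E17.5 (adjusted p = 0.00554), and spermatogonia 0.69 ± 0.23 above oogonia (adjusted p = 0.0197), a difference that was -0.53 with the deposited values. The second Apex2 probe fell as well, by 0.67, 1.68 and 1.45 in the 3 steps. Testis had the lowest levels, -6.29 and -6.36.

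Parp1, the main poly(ADP-ribose) polymerase at breaks, split by replicate at E10.5. Replicates 1 read -1.16 in females and -1.7 in males, and replicates 2 read 1.16 and 1.22. In PGC the replicate number coincided with the day of scanning, and the part of that day was not tested. None of the PGC comparisons passed for Parp1. In oogonia it was low, at -3.17 and -3.04, against -1.26 and -0.26 in E17.5 females (difference -2.35 ± 0.78, adjusted p = 0.0452). In spermatogonia it was -2.72 and -1.95, against -0.17 and 0.74 in E17.5 males (-2.62 ± 0.78, adjusted p = 0.0326). The second Parp1 probe gave -2.02 and -2.54 for these.

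Parp2, the second break-sensing polymerase, was lower at E13.5 than at E10.5 by a small margin (-0.49 ± 0.15, adjusted p = 0.021). It fell in males to -1.82 and -1.81 at E17.5 (-1.01 ± 0.22, adjusted p = 0.0016), 0.69 ± 0.22 below females (adjusted p = 0.0148). In EG cells it was 0.65 ± 0.15 above E13.5 PGC (adjusted p = 0.00265). Parg, which removes poly(ADP-ribose), lay between 0.55 and 2.17 on all PGC, oogonia and spermatogonia arrays and between -0.78 and 0.64 in cultured lines and testis. It was 1.15 ± 0.16 lower in EG than in E13.5 PGC (adjusted p = 2.86e-05; second probe -1.05). In GS (0.03 and 0.64) it was 1.25 ± 0.23 below spermatogonia (1.68 and 1.49; adjusted p = 0.000908; second probe -0.38).

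Xrcc1 was 0.85 ± 0.28 lower in EG than in E13.5 PGC (adjusted p = 0.0204). In spermatogonia (-0.88 and -0.68) it was 1.40 ± 0.39 below E17.5 males (0.82 and 0.42; adjusted p = 0.0247). The male step to E17.5 (0.81 ± 0.39, adjusted p = 0.105) passed with the replicate block (adjusted p = 0.0341, within a range of 0.0198 to 0.655 over the 13 alternatives). Lig3 was lower at E13.5 than at E10.5 by 0.60 ± 0.20 (adjusted p = 0.0288). It rose in females from -4.07 and -3.93 to -2.97 and -2.72 at E17.5 (1.15 ± 0.28, adjusted p = 0.00494). Oogonia (-4.51 and -4.38) were 1.60 ± 0.28 below E17.5 females (adjusted p = 0.0019), and spermatogonia (-4.5 and -4.16) 1.12 ± 0.28 below E17.5 males (adjusted p = 0.0154). All 3 Lig3 probes had these 4 signs. The call of the female step ended with normexp correction, with the deposited values and with the mean of the probes. At E10.5, 1 male array was not detected for Lig3.

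**Figure D3:**
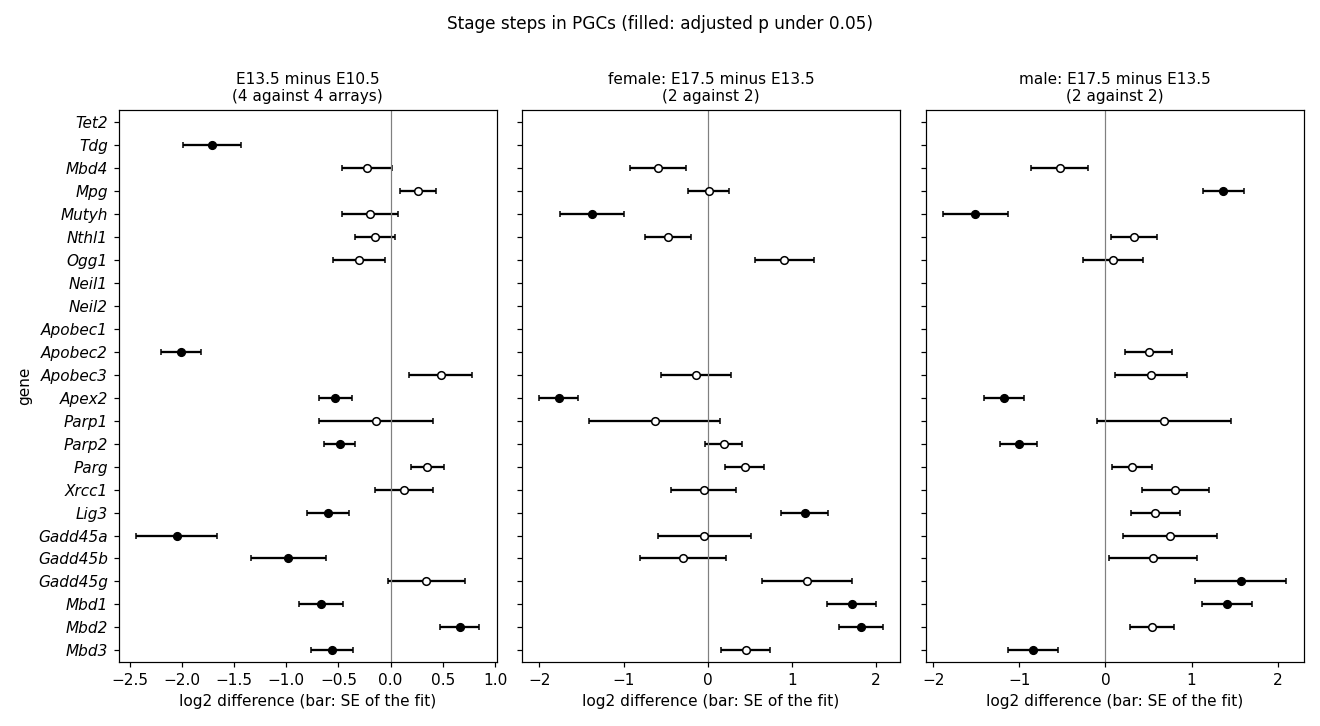
Log2 difference of each tested member (vertical axis) in the 3 PGC stage steps, with the standard error of the fit as a bar. Filled points passed. Apex2 lies left of 0 in all 3 panels, and Mbd1 lies right of 0 in both steps to E17.5.

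The GADD45 genes encode small stress-induced proteins. Gadd45a read -3.37 and -3.83 in E10.5 females and -2.97 and -3.36 in E10.5 males. At E13.5 it read -5.1 and -5.07 in females and -6.93 (not detected) and -4.65 in males, without overlap, a fall of 2.05 ± 0.39 (4.15-fold, adjusted p = 0.000752). At E17.5 the levels were -5.07, -5.18, -5.03 and -5.04. Oogonia were high, at -3.44 and -3.68, and spermatogonia lower, at -5.81 and -5.15 (-1.92 ± 0.55, adjusted p = 0.00844). EG cells read -2.59 and -1.64 in females and -3.49 and -3.21 in males, ES cells -2.75, -2.59, -3.39 and -3.65, and testis -5.79 and -5.94. EG exceeded E13.5 PGC by 2.70 ± 0.39 (6.50-fold, adjusted p = 3.55e-05), with no overlap.

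Gadd45b differed by sex in the opposite sense to Apobec2. At E13.5 females read -2.27 and -3.1 and males -3.99 and -4.71, a difference of -1.67 ± 0.51 (adjusted p = 0.0384). Both sexes were at -2.97 to -2.19 at E10.5, and at E17.5 females read -2.79 and -3.15 and males -3.4 and -4.21 (adjusted p = 0.182). Spermatogonia had the lowest levels, -6.11 and -5.94, 2.22 ± 0.51 below E17.5 males (adjusted p = 0.00903) and 1.98 ± 0.51 below oogonia (-3.88 and -4.21; adjusted p = 0.00422). EG levels ran from -3.07 to -2.5 and ES levels from -3.26 to -2.47. EG against E13.5 PGC was 0.83 ± 0.36 (adjusted p = 0.0743) and passed with the replicate block (adjusted p = 0.0371, within a range of 0.0355 to 0.866 over the 15 alternatives). Gadd45b was also 0.98 ± 0.36 lower at E13.5 than at E10.5 with the sexes averaged (adjusted p = 0.0437), where the stages overlapped. Its mean went from -2.58 to -2.68 in females and from -2.48 to -4.35 in males.

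Gadd45g rose in males from -3.4 and -4.21 at E13.5 to -1.64 and -2.84 at E17.5 (1.57 ± 0.53, adjusted p = 0.024). In females it read -2.72 and -3.54, then -2.05 and -1.85 (1.18 ± 0.53, adjusted p = 0.0931). Oogonia, at -4.08 and -4.54, lay below E17.5 females (-2.36 ± 0.53, adjusted p = 0.00709), and spermatogonia, at -2.8 and -2.39, were 1.71 ± 0.53 above oogonia (adjusted p = 0.0128). EG cells (-1.36, -1.91, -2.14 and -2.13) exceeded E13.5 PGC by 1.58 ± 0.37 (adjusted p = 0.00253).

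In GS cells all 3 GADD45 genes were above spermatogonia, but the 2 GS arrays differed. Gadd45b read -1.04 and -3.03 (3.99 ± 0.51, 15.9-fold, adjusted p = 4.81e-05), Gadd45a -2.52 and -3.77 (2.33 ± 0.55, adjusted p = 0.00531) and Gadd45g 0.01 and -2 (1.60 ± 0.53, adjusted p = 0.0347). Without GS replicate 1 the differences were 3, 1.71 and 0.60, and only that of Gadd45b passed. Without GS replicate 2 they were 4.99, 2.96 and 2.60. All 7 fibroblast and feeder markers were detected on both arrays and summed to 4.53 on replicate 1 and 1.15 on replicate 2, against 0.83 and 0.68 in spermatogonia. Their part in the GADD45 differences was not tested.

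Of the methyl-CpG readers, Mbd1 rose to E17.5 in both sexes and Mbd2 in females, while Mbd3 fell in males. Mbd2, which also serves the NuRD complex, read -5.06 (not detected), -4.65, -4.25 (not detected) and -4.32 at E10.5 and -4.06, -3.69, -4.25 and -3.64 at E13.5. The rise of 0.66 ± 0.19 (adjusted p = 0.0124) was -0.40 with normexp correction. Mbd2 was tested there through the E13.5 groups alone, the higher side. At E17.5 females were at -2.1 and -2.01 (1.82 ± 0.26 above E13.5, adjusted p = 7.84e-05) and males at -3.15 and -3.67 (0.54 ± 0.26, adjusted p = 0.108). Males were thus 1.36 ± 0.26 below females (adjusted p = 0.000511). Spermatogonia, at -1.91 and -1.89, were 1.51 ± 0.26 above E17.5 males (adjusted p = 0.00209), and GS, at -0.78 and -1.26, 0.88 ± 0.26 above spermatogonia (adjusted p = 0.0221).

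Mbd1 read -3.71, -3.96, -3.99 and -4.34 at E13.5 and -2.26, -1.99, -2.78 and -2.73 at E17.5. It rose by 1.71 ± 0.29 in females (adjusted p = 0.000328) and by 1.41 ± 0.29 in males (adjusted p = 0.00127), after a fall of 0.67 ± 0.21 to E13.5 (adjusted p = 0.0202). It was 1.28 ± 0.29 lower in spermatogonia (-3.75 and -3.46) than in oogonia (-2.36 and -2.28; adjusted p = 0.00184) and 1.19 ± 0.29 higher in GS (-1.91 and -2.91; adjusted p = 0.00713). Mbd3, a core NuRD subunit that binds methylated DNA poorly in mammals, was detected on all arrays. It was 0.56 ± 0.20 lower at E13.5 than at E10.5 (adjusted p = 0.0448), where its other 2 probes gave 0.21 and -0.40. It fell in males by 0.84 ± 0.29 to 1.35 and 1.09 at E17.5 (adjusted p = 0.0275; other probes -0.89 and -0.87), 0.88 ± 0.29 below females (adjusted p = 0.018). It was 0.90 ± 0.29 lower in spermatogonia than in oogonia (adjusted p = 0.0165).

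Between E10.5 and E13.5, 1 member rose and 9 fell of the 20 tested, where 35.0% of 11646 genes passed, 23.3% higher and 11.7% lower. Each difference averages the sexes, which could differ. The mean of Apobec2 went from -2.39 to -5.93 in females and from -2.46 to -2.94 in males. That of Gadd45b went from -2.58 to -2.68 in females and from -2.48 to -4.35 in males. The members' median difference was -0.26 against 0.23 over all genes. The direction of the whole comparison followed the scaling: 66.5% of called genes were higher, and between 28.3% and 83.9% under the other 3 scalings, with all-gene medians from -0.35 to 0.49. The members' calls were 0 higher and 9 lower with the 75th percentile over all probes, 0 and 5 with normexp correction and 0 and 2 with the deposited values. Apobec2 and Gadd45a passed in all 17 alternatives and Tdg in 16. Of the groups compared, E10.5 females alone had Tdg detected on both arrays. Tdg was thus tested through a group on the higher side, and its passes do not settle the size of its fall. Mbd2, the member that rose, had both arrays detected in the E13.5 groups alone, so it too was tested through the higher side. Leaving out E10.5 replicate 1 of either sex, or E13.5 replicate 2 of either sex, ended the calls of Gadd45b (-1.19 to -0.78 over the 8 arrays left out in turn), Mbd1 (-0.79 to -0.55) and Mbd3 (-0.70 to -0.41), and that of Mbd3 also without E13.5 replicate 1 of either sex. The call of Lig3 (-0.83 to -0.37) ended without E10.5 replicate 2 of either sex, either E13.5 female or E13.5 male replicate 2. That of Parp2 (-0.57 to -0.41) ended without E10.5 replicate 2 of either sex, E13.5 female replicate 1 or E13.5 male replicate 2, and that of Mbd2 (0.51 to 0.81) without E10.5 female replicate 1 or E13.5 replicate 2 of either sex. With slide as a fixed block on the PGC arrays alone, Apex2 (-0.56), Lig3 (-0.24), Mbd2 (0.50) and Parp2 (-0.38) lost their calls, while Ogg1 (-0.96) and Parp1 (0.86, against -0.14 here) passed, so that 8 were called, 6 of them shared. Slide 1, with the replicate 1 arrays, was the only slide that held both stages, and on the replicate 2 arrays Parp1 was lower at E13.5 (0.25 and -0.19) than at E10.5 (1.16 and 1.22). Markers moved in the same comparison. The germ cell markers rose in 4 of 5 and summed to 1.77 to 2.22 at E10.5 and 3.11 to 3.68 at E13.5, and 3 of 5 tested Sertoli markers rose. Their part in the members' changes was not tested. Of 16 other repair genes with a probe, Rpa2 (1.33 ± 0.23) and Pole (0.68 ± 0.20) rose and Rfc1 (-0.44 ± 0.15) fell, of 13 tested.

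From E13.5 to E17.5, 3 members rose and 2 fell of 18 tested in females, where 35.3% of 11989 genes passed (19.2% higher, 16.1% lower). In males 3 rose and 4 fell of 19 tested, where 44.1% of 12971 genes passed (30.0% higher, 14% lower). Members' medians were -0.02 in females and 0.53 in males, against 0.10 and 0.47 over all genes. Under the other scalings the share of called genes that were higher ran from 33.8% to 56.7% in females (54.4% here) and from 44.4% to 85.6% in males (68.1% here). With the deposited values 1 member passed in females and none in males. Apex2, Mbd1 and Mbd2 in females passed in 12 of 13 alternatives each, and Apex2, Mbd1, Mpg, Mutyh and Parp2 in males in 11. Mutyh in females lost its call without either E13.5 array or E17.5 replicate 1 (-1.41 to -1.35), Mbd3 in males without any single array (-0.97 to -0.71), and Gadd45g in males without E13.5 replicate 2 or without E17.5 replicate 1 (0.97 to 2.17). Ogg1 in females (0.91 ± 0.35, adjusted p = 0.0528) passed with scan day as a block (adjusted p = 0.0342, within a range of 0.0115 to 0.786 over the 13 alternatives). Of the other repair genes, 6 of 13 fell in females, led by Rpa1 (-2.30 ± 0.40) and Pold1 (-2.18 ± 0.29), and 7 of 14 in males, led by Rpa3 (-2.05 ± 0.40) and Fen1 (-1.54 ± 0.36). Blood and endothelial markers summed to between 0.18 and 4.07 on E17.5 arrays and between -5.78 and -0.28 at E13.5. Hba-a1 was detected on all 8 of these arrays and Alas2 on all E17.5 arrays, and Cdh5 and Ptprc were detected on none. Their part in these steps was not tested.

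**Figure D4:**
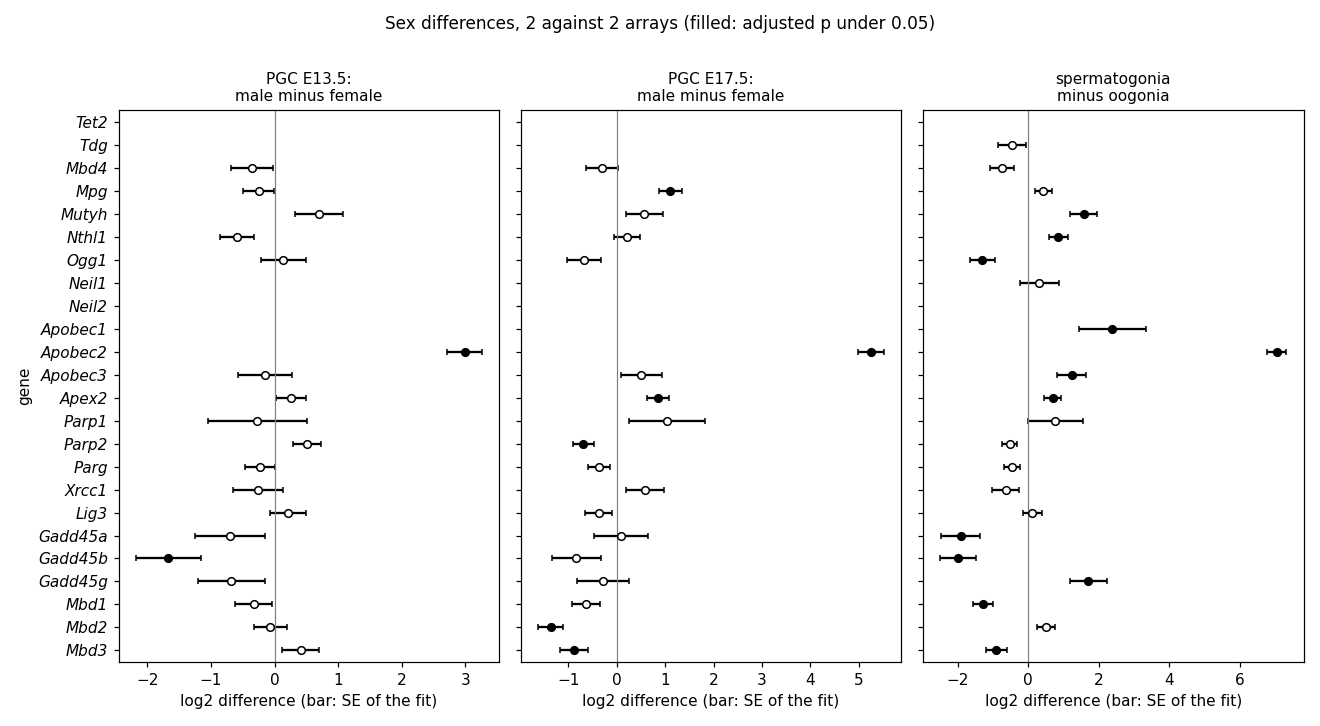
Log2 difference, male minus female, of each tested member (vertical axis) in PGC at E13.5 and E17.5 and in spermatogonia against oogonia, with the standard error as a bar. Filled points passed. Apobec2 is at 2.99, 5.25 and 7.05 in the 3 panels, and the horizontal scales differ.

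Between the sexes at E13.5, 1 member was higher in males (Apobec2) and 1 lower (Gadd45b) of 19 tested, where 14.3% of 11554 genes passed (5.46% higher, 8.80% lower). At E17.5, Apobec2, Mpg and Apex2 were higher and Mbd2, Mbd3 and Parp2 lower of 19 tested, where 51.7% of 13387 genes passed (30.7% higher, 20.9% lower). The members' medians were -0.23 and -0.28, against -0.11 and 0.27 over all genes. Higher genes made up 38.3% of all calls at E13.5 (7.66% to 63.3% under the other scalings) and 59.5% at E17.5 (47.1% to 62.2%). At E17.5 the members split 2 higher and 5 lower with the 75th percentile over all probes and 2 higher and none lower with normexp correction. The E13.5 call of Gadd45b ended without either female array or without male replicate 2 (-2.08 to -1.25). With the deposited values Apobec2 lost its E13.5 call and Gadd45b kept its own. With the 75th percentile over all probes, normexp correction or no filter on dim probes, Gadd45b lost its call and Apobec2 kept its own. At E17.5 the call of Apex2 ended without male replicate 1 (0.68), that of Mbd3 without female replicate 1 or male replicate 2 (-1.23 to -0.53), and that of Parp2 without female replicate 2 or either male array (-0.72 to -0.66). Mpg reversed to -0.47 with the mean of its probes. With slide as a fixed block 11 members passed at E17.5, including Gadd45b at -0.83, Mutyh at 0.57 and Parp1 at 1.04. The change from E13.5 to E17.5 differed between the sexes in 5 of 19 members tested (Apobec2, Mpg, Mbd2, Mbd3 and Parp2), where 29.3% of 13985 genes passed. Ogt, which partners TET proteins, was 0.90 ± 0.27 higher in males at E13.5 and 1.64 ± 0.27 lower at E17.5. In the same list of 6 tested, Idh2 (1.80 ± 0.49) and Cxxc5 (1.05 ± 0.29) were higher in males at E17.5.

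Spermatogonia exceeded oogonia in 7 members and fell below them in 5 of 22 tested, where 49.1% of 15440 genes passed (32% higher, 17.1% lower). Another scaling gave another split, namely 1 higher and 10 lower with the 75th percentile over all probes, 1 and 6 with the deposited values and 7 and 1 with normexp correction. Over all genes 65.2% of calls were higher, and 30.9% to 77.7% under those scalings, with all-gene medians from -0.89 to 0.81 (0.33 here, members 0.22). Oogonia and spermatogonia lay on different slides scanned on different days, so slide and cell type cannot be told apart. With slide as a random block Apobec2 alone passed. It was tested through the spermatogonia alone, since neither oogonia array was detected, so its pass does not settle the size of the difference. The calls of Apobec1 (2.06 to 2.72), Apobec3 (1.13 to 1.32) and Apex2 (0.67 to 0.71) ended without any 1 of the 4 arrays, and that of Gadd45a (-2.25 to -1.59) without replicate 1 of either. Those of Gadd45g (1.49 to 1.94) and Nthl1 (0.80 to 0.89) ended without replicate 2 of either, that of Nthl1 also without spermatogonia replicate 1, and that of Mbd3 (-1.02 to -0.78) without oogonia replicate 2 or spermatogonia replicate 1. Nthl1, 0.85 ± 0.27 higher in spermatogonia (adjusted p = 0.0155), was -0.37 with the deposited values.

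Against E17.5 PGC of the same sex, none rose and 4 fell of 20 members tested in oogonia (Gadd45g, Parp1, Lig3 and Nthl1), where 19.3% of 14008 genes passed (6.09% higher, 13.2% lower). In spermatogonia 1 rose (Mbd2) and 4 fell (Parp1, Gadd45b, Xrcc1 and Lig3) of 20 tested, where 15.6% of 13747 passed (6.63% higher, 9.01% lower). In the latter all 6 tested Sertoli markers fell as well, with a median of -3.07 (sums 2.95 and 1.88 in E17.5 males, -0.46 and -0.6 in spermatogonia), and their part in the members' changes was not tested. Medians were -0.28 and -0.35 for the members and -0.27 and -0.11 over all genes. With the 75th percentile over all probes the oogonia split became 4 higher (Apex2 0.99, Gadd45a 2.10, Parg 1.00 and Tdg 1.67) and 2 lower. The share of called genes that were higher was 31.5% for oogonia and 42.4% for spermatogonia here, and it ran from 16% to 94% and from 31% to 64.3% under the other scalings. Tdg in oogonia (1.13 ± 0.40, adjusted p = 0.0546) also passed with the replicate block (adjusted p = 0.0323, within a range of 0.00359 to 0.469 over the 11 alternatives). Slide and stage cannot be told apart here, and with slide as a random block only Lig3 passed in oogonia and only Mbd2 in spermatogonia. No single array left out ended the calls of Lig3 in oogonia and Mbd2 in spermatogonia. Those of Parp1 in both (-2.85 to -1.84 and -3.07 to -2.16) and Xrcc1 (-1.6 to -1.2) ended without any 1 array. In oogonia the call of Gadd45g (-2.58 to -2.13) ended without replicate 2 of either group, and that of Nthl1 (-1.19 to -0.76) without either oogonia array or E17.5 female replicate 1. In spermatogonia those of Gadd45b (-2.63 to -1.82) and Lig3 (-1.29 to -0.95) ended without replicate 1 of either group, that of Lig3 also without E17.5 male replicate 2.

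**Figure D5:**
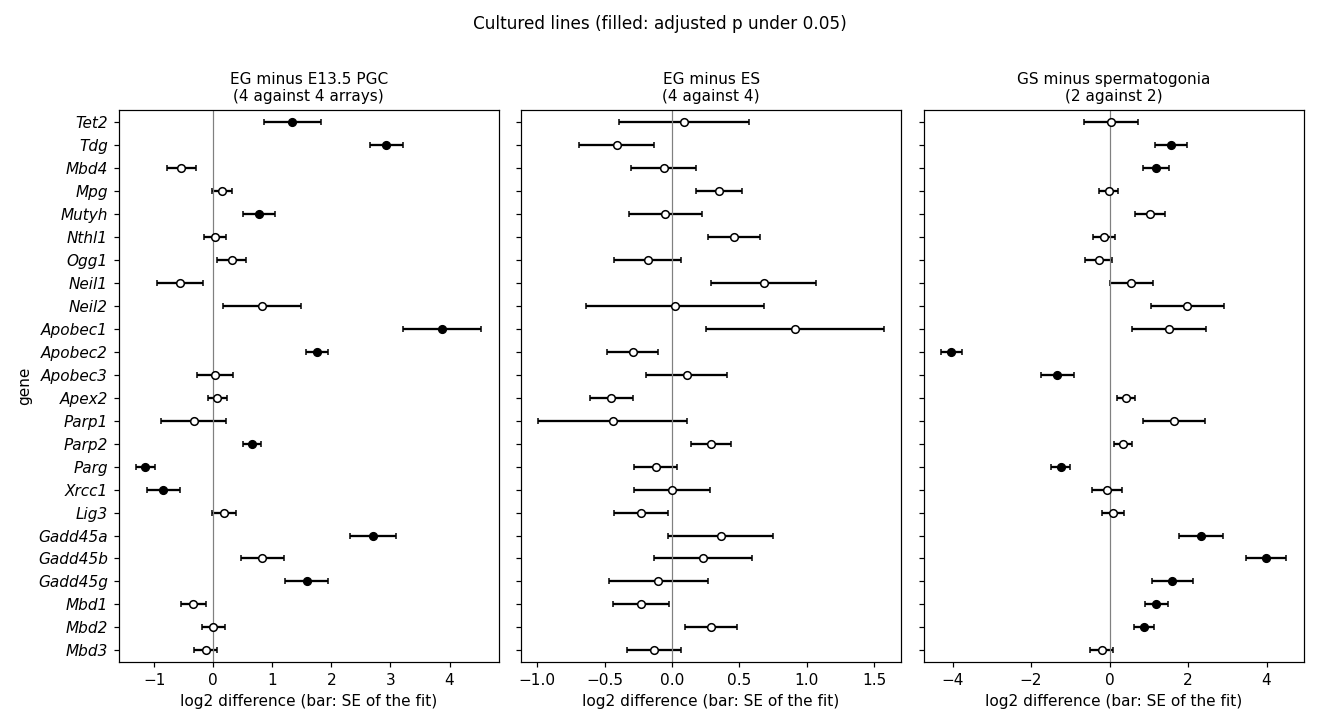
Log2 difference of each tested member (vertical axis) for EG against E13.5 PGC, EG against ES and GS against spermatogonia, with the standard error as a bar. Filled points passed. None is filled for EG against ES, where every point lies between -0.45 and 0.91.

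By the fit, EG cells exceeded E13.5 PGC in 8 members (Apobec1, Tdg, Gadd45a, Apobec2, Gadd45g, Tet2, Mutyh and Parp2) and fell below them in 2 (Parg and Xrcc1) of 24 tested, where 42.1% of 18187 genes passed, 18.4% higher and 23.7% lower. Of the 8, Tdg and Tet2 were detected on 1 of 4 E13.5 arrays and Apobec1 on none, so these were tested through the EG arrays alone, and Tet2 passed in the other direction with normexp correction (-1.23, adjusted p = 0.0103). Medians were 0.16 for the members and -0.16 over all genes. Mutyh was 0.77 ± 0.27 higher (adjusted p = 0.03), but -0.07 with normexp correction. The members split 8 and 1 with the 75th percentile over all probes, 8 and none with the deposited values and 4 and 9 with normexp correction, when 10.9% of all called genes were higher, against 43.7% here and 79% with the deposited values. EG and PGC arrays lay on different slides, and with slide as a random block 5 members passed. Tdg and Gadd45a passed in all 15 alternatives, and Apobec1 and Apobec2 in 14. The calls of Mutyh (0.69 to 0.85), Tet2 (1.2 to 1.48) and Xrcc1 (-1.07 to -0.64) also ended without single arrays. For Mutyh these were all but E13.5 male replicate 1 and EG female replicate 1, for Tet2 all but E13.5 female replicate 2, and for Xrcc1 E13.5 replicate 1 of either sex, EG female replicate 1 and EG male replicate 2. The E13.5 arrays here are those of the step from E10.5, so the values of the 2 comparisons are not independent. Of the other repair genes 1 rose and 7 fell of 15 tested, led by Pole (-1.43 ± 0.20).

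EG and ES cells differed in no member of 24 tested by limma's adjusted p, where 6.34% of 19093 genes passed (4.35% higher, 1.99% lower). By the same fit 2 members had an unadjusted p under 0.05. The largest difference was that of Apobec1 (0.91 ± 0.66, adjusted p = 0.467), and the members' median was -0.02 (0.09 over all genes). Apex2 was -0.45 ± 0.16 (adjusted p = 0.111) and Nthl1 0.46 ± 0.19 (adjusted p = 0.162). These values do not show that the lines are alike. Among nucleotide excision repair genes, which serve another candidate route, Ercc2 was 1.47 ± 0.30 lower in EG.

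GS cells exceeded spermatogonia in 7 members (Gadd45b, Gadd45a, Gadd45g, Tdg, Mbd1, Mbd4 and Mbd2) and fell below them in 3 (Apobec2, Apobec3 and Parg) of 24 tested, where 25.4% of 21226 genes passed (12.6% higher, 12.8% lower). Of the 7, Tdg and Mbd4 were detected on 1 of 2 spermatogonia arrays, so these were tested through the GS arrays alone. With normexp correction they were -0.70 and -0.64. Medians were 0.49 for the members and 0.06 over all genes. With normexp correction the split was 2 and 8, and 9.49% of all called genes were higher against 49.5% here. GS and spermatogonia lay on different slides, and with slide as a random block Apobec2 and Gadd45b passed. These and Parg kept their calls without any single array. The call of Apobec3 ended without any 1 of the 4 arrays (-1.42 to -1.23). Those of Gadd45a, Gadd45g, Mbd1 (0.69 to 1.69) and Mbd2 (0.64 to 1.12) ended without GS replicate 1 or spermatogonia replicate 1, those of Gadd45g and Mbd2 also without spermatogonia replicate 2. That of Mbd4 ended without spermatogonia replicate 1 (0.73) or GS replicate 2 (0.82), and that of Tdg without spermatogonia replicate 2 (1.35). The nucleotide excision repair gene Xpa was 3.12 ± 0.61 higher in GS, and among the other base excision repair genes Aplf was 2.29 ± 0.62 higher and Fen1 1.57 ± 0.36.

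The genes that work beside the members gave further counts. Of 7 measured TET partners and cosubstrate enzymes, 1 rose and 2 fell of 6 tested in the female step to E17.5, where 35.3% of all genes passed (Ogt 1.11 ± 0.27, Idh2 -2.26 ± 0.49 and Cxxc5 -1.33 ± 0.29). In the male step Ogt alone passed, at -1.42 ± 0.27. All 11 NuRD subunits, partners of Mbd2 and Mbd3, had a probe. In the male step, where 44.1% of all genes passed, Gatad2b rose (1.33 ± 0.44) and 4 fell of 11 tested, led by Mta1 (-2.08 ± 0.33), a share near that of all genes, and at E17.5 Mta1 was 2.39 ± 0.33 lower in males. Of 9 measured nucleotide excision repair genes, 4 were higher and 3 lower in EG than in E13.5 PGC, where 42.1% of all genes passed, with Ercc2 at -2.40 ± 0.30 and Xpa at 1.53 ± 0.43. Elp3, another proposed demethylation factor, passed in none of the comparisons above, with differences from -0.49 to 0.38. In testis against spermatogonia, given below, Elp3 was lower and passed (-0.94). These lists were not tested as sets.

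A pair of comparisons was added after the data were seen, female against male over EG and ES cells and adult testis against spermatogonia, by the same fit.

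In EG and ES cells Tet2 was the member with the largest sex difference. Females read -5.56, -5.35, -5.31 and -5.19 and males -7.17, -6.78, -7.19 and -7.53, without overlap. The difference, male minus female, was -1.82 ± 0.48 (3.53-fold, limma's adjusted p = 0.0595) and lower in 4 of 4 male arrays. None of the 24 members tested passed, where 2.29% of 19093 genes did (0.953% higher, 1.34% lower), and 4 had an unadjusted p under 0.05. With slide as a random block Tet2 passed (adjusted p = 0.00933, within a range up to 0.222 over the 15 alternatives). Each EG and ES slide held both sexes. The ES lines differ in strain as well as sex, which cannot be told apart there.

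Testis differed from spermatogonia in 12 of 23 members tested, where 44.7% of 22967 genes passed (24.4% higher, 20.3% lower). Strain and slide differ between these groups as well and cannot be told apart from the cell source. Lig3, the ligase of single-strand break repair, read -1.45 and -1.46 in testis and -4.5 and -4.16 in spermatogonia, a rise of 2.87 ± 0.28 (7.32-fold, adjusted p = 5.76e-07). Its other 2 probes gave 3.69 and 3.14. Mbd4 (2.06 ± 0.33), Ogg1 (1.44 ± 0.35), Mbd1 (1.35 ± 0.29) and Gadd45b (1.77 ± 0.51) were higher as well, and Gadd45b was -0.17 with normexp correction. Apobec2 (-2.58 ± 0.27), Nthl1 (-2.46 ± 0.27), Parg (-2.33 ± 0.23), Apex2 (-2.21 ± 0.23) and Apobec3 (-1.61 ± 0.42) were lower. Neil1 and Tet2 also passed, but neither spermatogonia array was detected, so no direction is given. The members split 3 higher and 10 lower when scaled to the all-probe percentile, 1 and 7 in the deposited values and 1 and 11 after normexp correction. Apex2, Apobec2, Lig3, Nthl1 and Parg passed in all 11 alternatives. The 3 spermatid markers summed to 4.69 and 4.76 in testis, and the part of cell makeup in these differences was not tested.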

How the data were processed

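RNA from 28 samples in 14 groups of 2 was measured on single-colour Agilent mouse arrays. Total RNA was extracted and labelled with Cy3 per the labels' protocols. Scanner intensity values were made with Agilent Feature Extraction 10.5.1.1, per the file headers and the submitters' processing notes; they were background-corrected in the deposited processed signal. The authors' deposited matrix of values was on the log2 scale and equalled log2 of that signal minus the array median within 0.00252, so its direction was known and its column medians ran from -7.34e-05 to 0.00251. Other deposited columns used were detection and spot flags.

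From these, log2 of the processed signal was centred on each array's 75th percentile over 7227 probes well above background on all arrays. Control spots (1417) and 514 non-uniform probes were left out. Of 43803 probes, 16759 were named through RefSeq accessions (13142 symbols) and 27044 kept the array's own identifier. A gene was tested where at least 1 of the compared groups had it well above background on its 2 arrays, in 1 limma fit (limma 3.58.1, R 4.3.3) with a mean per group and 14 residual degrees of freedom. The Benjamini-Hochberg threshold was 0.05. The code was tested on simulated data. The precision is limited by the number of arrays, 2 a group. Figures used matplotlib 3.10.9. Arrays of a group correlated with r from 0.94 (GS) to 0.997 (testis).

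In PGC the replicate number coincided with the scan day. Same-numbered PGC samples deviated together in 15 of 15 pairs of groups (r from 0.29 to 0.80 over 5429 genes), so a fit with the number as a block was an alternative. The others were the percentile over all probes, normexp on the median signal (offset 50, since no mean signal column was used), the deposited values, no filter on dim probes, the mean of a gene's probes, slide as a random or fixed block, scan day as a block, and leaving out each array. All members past the threshold are named per comparison, up to 12. The members, companion lists and marker lists were chosen with earlier results of these data known.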

Additional observations from a re-analysis of the deposited data

Results flagged for a closer look

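For 5 members the change from E13.5 to E17.5 in PGC differed between the sexes by a test of the difference itself (limma's interaction term, Benjamini-Hochberg adjusted over 13985 genes, of which 29.3% passed). Each value is the male change minus the female change in log2 units.

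Apobec2 differed by 2.26 ± 0.38 (adjusted p = 0.000387): females went from -5.9 and -5.96 to -7.92 and -7.47, and males from -3.16 and -2.73 to -2.47 and -2.41. Both E17.5 female values and 1 E13.5 female value were not detected. Apobec2 thus entered this test through the male groups alone, and the size of the difference rests in part on undetected female signal. Its female step was not tested by itself, and its male step did not pass. Mpg differed by 1.36 ± 0.35 (adjusted p = 0.0076), whereas its second probe gave -1.04 for the male step and 0.28 for the female step. Mbd2 differed by -1.29 ± 0.37 (adjusted p = 0.0164), since it rose by 1.82 in females and by 0.54 in males. Mbd3 differed by -1.29 ± 0.41 (adjusted p = 0.0258) and Parp2 by -1.20 ± 0.31 (adjusted p = 0.00798), both with a fall that passed in males.

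The Mbd2 call ended without E13.5 female replicate 1, E13.5 male replicate 2 or E17.5 male replicate 2 (-1.59 to -0.98). The Mbd3 call ended without any E13.5 array, E17.5 female replicate 1 or E17.5 male replicate 2 (-1.64 to -0.94). None of the 5 passed with normexp correction or with the deposited values. Sertoli cell markers summed to 1.88 and 2.95 in E17.5 males and to -3.04 and -2.12 in females, and their part in these differences was not tested.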

How the results depend on the processing

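Over 3917 values of members under alternatives, 320 lost a call, 68 gained one and 19 changed sign with a call in at least 1 of the 2 fits. The other 3510 kept their side of the threshold. A change of sign without a call in either fit was counted among these. The counts of members called changed as follows. For E13.5 against E10.5 the count of 10 was 5 with normexp correction, 2 with the deposited values and 4 with no filter on dim probes. The female step to E17.5 (5) gave 2 with normexp and 1 with the deposited values, and the male step (7) gave 1 and 0. Sex at E13.5 (2) gave 1 with normexp, the deposited values, no filter and the percentile over all probes. Sex at E17.5 (6) gave 2 with normexp, 2 with the deposited values and 11 with slide as a fixed block. The difference of the steps between sexes (5) gave 0 with normexp, 0 with the deposited values and 3 with no filter. Oogonia against E17.5 females (4) gave 0 with the deposited values and 1 with slide as a random block. Spermatogonia against E17.5 males (5) gave 1 with normexp, 0 with the deposited values, 2 with no filter and 1 with the random slide block. Spermatogonia against oogonia (12) gave 7 with the deposited values and 1 with the random slide block. With that block EG against E13.5 PGC gave 5 (of 10), GS against spermatogonia 2 (of 10), testis against spermatogonia 7 (of 12) and sex in EG and ES 1 (of 0), and GS gave 4 with the deposited values. The causes were not tested.

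With normexp correction Mbd2 turned to -0.40 for E13.5 against E10.5. For EG against E13.5 PGC it turned Lig3 to -0.55, Mbd2 to -0.65, Mutyh to -0.07, Neil2 to -2.20 and Tet2 to -1.23. For GS it turned Lig3 to -0.80, Mbd4 to -0.64, Neil1 to -1.97, Neil2 to -1.74, Tdg to -0.70 and Tet2 to -2.52, and for testis Gadd45b to -0.17. With the deposited values Apex2 turned to -0.53 and Nthl1 to -0.37 for spermatogonia against oogonia. The mean of probes turned Mpg to -0.47 for sex at E17.5 and to -0.91 for EG, and Tdg to -0.09 for GS. Slide as a fixed block turned Parp1 to 0.86 for E13.5 against E10.5.

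Leaving out 1 array at a time, 5 to 9 members were called for E13.5 against E10.5, 4 to 5 for the female step, 5 to 7 for the male step, 1 to 2 for sex at E13.5, 4 to 6 at E17.5 and 3 to 5 for the difference of the steps. The counts were 1 to 3 for oogonia and 1 to 4 for spermatogonia against E17.5 PGC, 6 to 8 between them, 7 to 9 for EG against E13.5 PGC, 4 to 8 for GS, 10 to 11 for testis and 0 for EG against ES and for sex in EG and ES. Where 1 array was left in a group it was assumed to vary like the other groups. With the replicate number as a block, 288 of 295 member values kept their side of the threshold, 2 lost a call (Apobec1 for spermatogonia against oogonia and Tet2 for testis) and 5 gained one. The count went from 7 to 8 in the male step, from 4 to 5 in oogonia, from 12 to 11 for spermatogonia against oogonia, from 10 to 11 in EG and from 12 to 13 in testis, and it stayed the same in the other comparisons. Signal near background limits Tet2, Neil1, Neil2, Apobec1 and, in PGC, Tdg.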
